A study of Mus musculus with 6 samples.

Results

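The genes described here are 10 members of a single regulatory circuit around HDAC4 in mouse dorsal root ganglia (DRGs), of 22180 genes read on the arrays. They are the MEF2 transcription factor genes Mef2a, Mef2c and Mef2d and the kinase genes Camk2a, Camk2b, Camk2d, Camk2g, Prkd1, Prkd3 and Sik2. They were taken by gene symbol, each by the probe set that carries that symbol alone and has the highest mean over all 6 arrays, and all 10 were found. Their mean signals all lay above that of the median probe set, and 0 of the 10 were left out of a test.

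HDAC4 is a class IIa histone deacetylase that has little enzymatic activity of its own and acts as a corepressor. In the nucleus it binds MEF2 factors and keeps their target genes off. When calcium/calmodulin-dependent protein kinases such as CaMKII, protein kinases D (PKD) or salt-inducible kinases (SIK) phosphorylate it, 14-3-3 proteins bind the phosphorylated sites, HDAC4 is retained in the cytoplasm, and MEF2 is freed. In neurons this shuttling follows electrical activity and calcium entry.

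The arrays profiled lumbar DRGs of naïve adult mice of the C57Bl/6 strain, 3 wild-type samples (genotype HDAC4 fl/fl) and 3 HDAC4 Nav1.8 cKO samples, with 1 array per sample. Both groups carry the floxed Hdac4 alleles, and the cKOs also carry a Cre recombinase driven from the Nav1.8 locus. Nav1.8-Cre is used to target mainly small nociceptive neurons. Cells of the ganglion that it does not reach keep the gene, and recombination by cell type was not measured here. The question put to the arrays was whether loss of HDAC4 alters mRNA levels in ganglia that have not been injured or inflamed.

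The values are log2 signals from the robust multichip average (RMA), and a difference of 1 is a doubling. Differences are given as cKO minus wild-type, with the moderated standard error (SE) and the adjusted p of limma over all 41345 probe sets. Signals of different genes come from different probes and were not set against each other. Median signals were 6.43 to 6.50 per array. The labels do not say whether each sample is a separate animal, and each p value then reflects only how far these samples spread. All 14 pan-neuronal and all 7 measured nociceptor markers had mean signals above the median probe set.

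Hdac4, the targeted gene and the substrate of the circuit, read 9.22, 9.49 and 9.19 in the wild-type arrays and 9.17, 9.14 and 9.21 in the cKO arrays, so the groups overlapped (adjusted p = 0.776 from limma). Which exons its probe set covers is not given in the sources used here, and the value is therefore no check of the deletion. The study itself reported less Hdac4 mRNA by RT-qPCR, in the floxed exons too, and less HDAC4 protein by Western blot in cKO DRGs.

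The arrays differed in ways that the labels do not give. Xist, which silences an X chromosome in females, was high in every wild-type array (11.60, 11.71 and 11.60) and in cKO replicate 1 (11.74), but low in cKO replicates 2 and 3 (6.67 and 5.95). The Y-linked gene Uty ran the opposite way. The study's methods describe the groups as matched for sex, and the labels give no sex for any sample. Of 17 skeletal muscle markers, 16 had a higher mean in the cKO group, with a median log2 difference of 0.95, and none was at 0. The log2 of their summed signal was 11.06 to 12.68 in the wild-type arrays and 12.41 to 13.09 in the cKO arrays. MEF2 factors and CaMKII are also made in muscle fibers, so Mef2d, Camk2a and Camk2b, the members with a higher mean in the cKO group, are also given below with the muscle marker mean in the fit. A lower signal in a whole ganglion can come from fewer cells of a type or from less RNA per cell, and these cannot be told apart.

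None of the 10 members passed limma's test of cKO against wild-type. Mef2d was higher in all cKO arrays than in any wild-type array, whereas Mef2c and Prkd3 were lower in all cKO arrays. These were log2 differences of 0.17 ± 0.07, -0.12 ± 0.08 and -0.13 ± 0.08 (SE, n = 3 each), and adjusted p values from limma were 0.673, 0.737 and 0.72. Over all probe sets 0% were called at an adjusted p under 0.05, while 3081 lay below 0.05 before adjustment. At the unadjusted threshold 0 of 10 members passed, beside 5.48% of all genes.

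**Figure D1:**
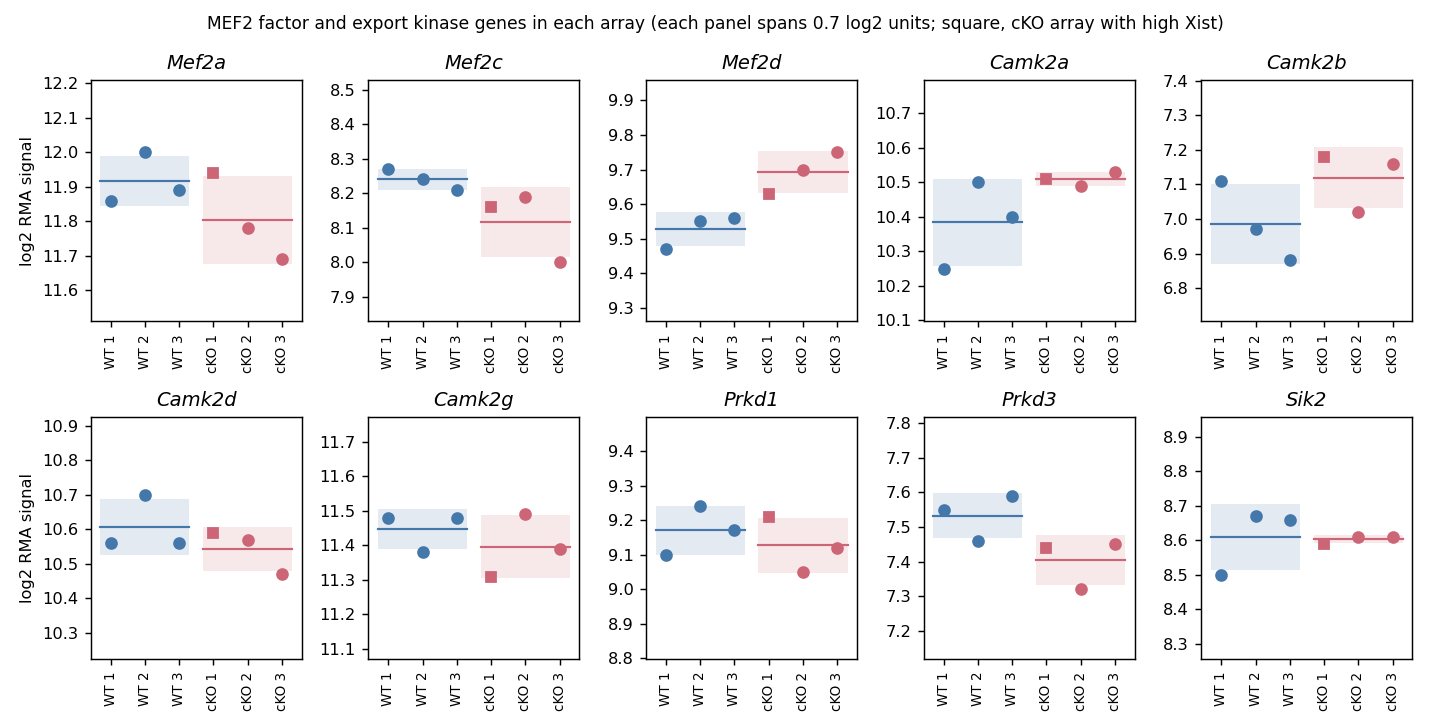
Log2 RMA signal of each member gene (1 panel each) in the 3 wild-type (WT, blue) and 3 cKO arrays (red), with the group mean as a line and ± 1 SD as a band; the square is cKO replicate 1, the cKO array with high Xist. Mef2d, Mef2c and Prkd3 are the panels in which blue and red points do not overlap, and Sik2 has nearly equal group means of 8.61 and 8.60.

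MEF2 factors are MADS box proteins, and the 3 genes shown here encode the forms found in neurons. Mef2d read 9.47, 9.55 and 9.56 in the wild-type arrays and 9.63, 9.70 and 9.75 in the cKO arrays. Each cKO array thus lay above every wild-type array. The groups had means of 9.53 ± 0.05 and 9.69 ± 0.06 (SD, n = 3 each), and the 95% confidence interval of the difference was -0.0040 to 0.34. The exact permutation p was 0.1, 2-sided, which is the smallest that 3 arrays against 3 can give.

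Mef2c, which is also made in endothelium, microglia and B lymphocytes, went the other way. It read 8.27, 8.24 and 8.21 in the wild-type arrays and 8.16, 8.19 and 8.00 in the cKO arrays. The cKO values were all lower, and cKO replicate 3 was the lowest. The interval of the difference was -0.31 to 0.06 (exact permutation p = 0.1). A second probe set with the Mef2c symbol alone read 6.24, 6.27 and 6.01 against 6.03, 5.86 and 6.01, a log2 difference of -0.21 ± 0.10 (SE, n = 3 each; adjusted p = 0.688 from limma). There the groups met at wild-type replicate 3. Without cKO replicate 3 the difference of the main probe set was -0.07.

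Of 7 lymphocyte markers 5 had a lower mean in the cKO group (median log2 difference -0.22), none at 0. The log2 of their summed signal was 10.38 to 10.89 in the wild-type and 10.41 to 10.84 in the cKO arrays, and 65.1% of it came from Ighm, an immunoglobulin gene. With every marker given the same weight the groups were apart. Centered on its mean over the 6 arrays, the mean log2 signal of the list stood at 0.07, 0.12 and 0.07 in the wild-type and -0.05, -0.01 and -0.20 in the cKO arrays. The B cell receptor genes Cd79a and Cd79b and the leukocyte gene Ptprc were each lower in all cKO arrays, by log2 differences of -0.47, -0.22 and -0.40. The groups overlapped for Ms4a1, Cd3e, Cd3d and Ighm, with log2 differences of -0.27, -0.02, 0.02 and 0.15, so Ighm had the higher mean in the cKO group. Of 10 endothelial markers 4 were lower (median 0.01), with a log2 summed signal of 11.80 to 11.87 and 11.70 to 11.95. The part of these cells in the Mef2c values was not tested.

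Mef2a read 11.86, 12.00 and 11.89 in the wild-type arrays and 11.94, 11.78 and 11.69 in the cKO arrays. The overlap came from cKO replicate 1, which lay above 2 of the 3 wild-type arrays, and the other cKO arrays lay below all of them. The log2 difference was -0.11 ± 0.09 (SE, n = 3 each; adjusted p = 0.782 from limma), with an interval of -0.33 to 0.10. cKO replicate 1 is also the cKO array with high Xist. With a term for sex, which leaves cKO replicate 1 as the only array set against the wild-type group, the difference of Mef2a was 0.02, and without that array it was -0.18. It was -0.06 without cKO replicate 3 and -0.07 without wild-type replicate 2. With the term for sex and without cKO replicate 1, the differences were 0.10 and 0.20 for Mef2d and -0.08 and -0.14 for Mef2c.

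The promoters of the MEF2 genes are shown because MEF2 factors are known to bind and regulate MEF2 genes in muscle. RefSeq gives 11 promoter windows (GRCm38.p6, 250 bases before to 50 after a start site) for 8 of the 10 members. Camk2a and Camk2g were not matched. The stretches below run 5′ to 3′ from 150 bases before to 20 bases after the start site. Capitals mark a MEF2 site (CTAAAAATAG) in Mef2a and GC boxes (GGGCGG, on either strand) in Mef2d. In Mef2c they mark the letters of a TATA box (TATAAA), here on the opposite strand and at -107 from the start site. The stretches lie at chr7:67372839-67373008 (minus strand), chr13:83503884-83504053 (plus strand, the most upstream of 3 Mef2c windows) and chr3:88142222-88142391 (plus strand).
Mef2a: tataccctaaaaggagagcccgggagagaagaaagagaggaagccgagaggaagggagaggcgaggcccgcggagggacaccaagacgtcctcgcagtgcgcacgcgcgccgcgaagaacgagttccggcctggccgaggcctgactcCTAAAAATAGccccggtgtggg
Mef2c: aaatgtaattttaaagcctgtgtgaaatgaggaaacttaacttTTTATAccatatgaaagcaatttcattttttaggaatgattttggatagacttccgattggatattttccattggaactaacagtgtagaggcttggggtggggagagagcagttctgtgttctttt
Mef2d: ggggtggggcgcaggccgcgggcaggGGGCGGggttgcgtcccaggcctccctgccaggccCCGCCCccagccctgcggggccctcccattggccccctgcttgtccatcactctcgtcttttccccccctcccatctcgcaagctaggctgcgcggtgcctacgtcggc

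Each motif was searched on both strands. The Mef2a window held the exact MEF2 site, which begins 2 bases before the annotated start and runs across it. Among all 32851 windows of this length 36 (0.11%) held that site, and among the 11 member windows 1 did. The degenerate MEF2 consensus, which contains the exact site, was in 3.19% of all windows and again in Mef2a alone among the members. The letters of the TATA box were in 13.6% of all windows and in 2 of the 3 Mef2c windows. Both Mef2c matches were on the opposite strand, at -107 and -22 from the start site. The GC box was in 35.7% of all windows and in 7 of the 11 member windows, those of Mef2d, Camk2b, Camk2d, Prkd1 and Sik2 and 1 each of Mef2c and Prkd3. The cyclic AMP response element (TGACGTCA, 1.79% of all windows) was in none of the 11, and its core (TGACG, 20.8%, contained in the full one) was in Sik2. GC content was 72% in the Mef2d window, 62.3% in that of Mef2a and 35.7% to 48.3% in those of Mef2c, beside a median of 52.7%. A match describes the letters only, and binding was not measured.

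CaMKII is a holoenzyme of subunits from separate genes, of which the alpha and beta subunits predominate in neurons and the delta and gamma subunits are made in most tissues. The neuronal subunit genes had the higher means in the cKO group and the other subunit genes the lower, but in each of them the groups overlapped. Camk2a (alpha) read 10.25, 10.50 and 10.40 in the wild-type arrays and 10.51, 10.49 and 10.53 in the cKO arrays. The cKO arrays lay close together, whereas wild-type replicate 1 was low, and without it the log2 difference of 0.13 ± 0.08 (SE, n = 3 each; adjusted p = 0.749 from limma) was 0.06. Camk2b (beta) read 7.11, 6.97 and 6.88 against 7.18, 7.02 and 7.16, a log2 difference of 0.13 ± 0.09 (SE, n = 3 each; adjusted p = 0.753 from limma). Its overlap came from wild-type replicate 1 and cKO replicate 2, and the difference was 0.08 without wild-type replicate 3.

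Camk2d (delta) read 10.56, 10.70 and 10.56 in the wild-type arrays and 10.59, 10.57 and 10.47 in the cKO arrays. Camk2g (gamma) read 11.48, 11.38 and 11.48 against 11.31, 11.49 and 11.39. Neither gene separated the groups, with log2 differences of -0.06 ± 0.08 and -0.05 ± 0.08 (SE, n = 3 each) and adjusted p values from limma of 0.852 and 0.887. The 95% intervals were -0.25 to 0.12 for Camk2d and -0.24 to 0.14 for Camk2g. The difference of Camk2d was -0.02 without wild-type replicate 2 and -0.03 without cKO replicate 3, and -0.02 with either sex or the muscle marker mean in the fit. That of Camk2g was -0.14 with sex and -0.13 with the muscle marker mean in the fit. It ranged from -0.10 to -0.0067 with 1 array left out, the nearest to 0 without cKO replicate 1.

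Camk2a and Camk2b are abundant in the spinal cord as well. Of 12 spinal cord markers 10 had a higher mean in the cKO group (median log2 difference 0.10), none at 0, with a log2 summed signal of 11.74 to 11.86 in the wild-type and 11.70 to 11.89 in the cKO arrays. Of that sum 75.5% came from Slc17a6, a glutamate transporter gene that sensory neurons express too. With every marker given the same weight, cKO replicate 2 stood highest. Centered in the same way, the mean log2 signal of the list stood at 0.00, -0.12 and -0.09 in the wild-type and -0.07, 0.30 and -0.03 in the cKO arrays. In cKO replicate 2 the myelin genes Mobp and Mog read 7.54 and 7.16 and the astrocyte gene Gfap 7.46, each the highest of the 6 arrays. The part of such tissue in the CaMKII values was not tested. Of 14 pan-neuronal markers 8 had a higher and 6 a lower mean in the cKO group. Their centered mean log2 signal stood at 0.002, -0.030 and -0.013 in the wild-type and 0.011, 0.017 and 0.012 in the cKO arrays. The part of neuronal content in the CaMKII values was not tested either. With the muscle marker mean as a covariate the differences were 0.16 for Camk2a, 0.25 for Camk2b and 0.15 for Mef2d. Those of Camk2a and Camk2b were thus larger with it than without it. The centered muscle mean was -0.68, -1.09 and 0.36 in the wild-type and 0.33, 0.87 and 0.21 in the cKO arrays. It largely follows the group, and only wild-type replicate 3 lies in the cKO range. The fit therefore cannot tell muscle content and genotype well apart.

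PKD and SIK are kinases of other branches that reach overlapping sites on class IIa HDACs. Prkd3 (protein kinase D3) read 7.55, 7.46 and 7.59 in the wild-type arrays and 7.44, 7.32 and 7.45 in the cKO arrays. All cKO values were below all wild-type values, by 0.01 at the nearest pair, and the interval was -0.31 to 0.05 (exact permutation p = 0.1). Prkd1 (protein kinase D1) read 9.10, 9.24 and 9.17 against 9.21, 9.05 and 9.12. Its groups overlapped, with a log2 difference of -0.04 ± 0.08 (SE, n = 3 each; adjusted p = 0.904 from limma). That difference was between -0.09 and -0.0050 with 1 array left out, the nearest to 0 without cKO replicate 2.

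Sik2, a salt-inducible kinase that also holds the CREB coactivators of the CRTC family in the cytoplasm, read 8.50, 8.67 and 8.66 in the wild-type arrays. The cKO arrays read 8.59, 8.61 and 8.61 and so lay within the wild-type range. The log2 difference was -0.01 ± 0.08 (SE, n = 3 each), with an interval of -0.19 to 0.17 (adjusted p = 0.987 from limma).

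**Figure D2:**
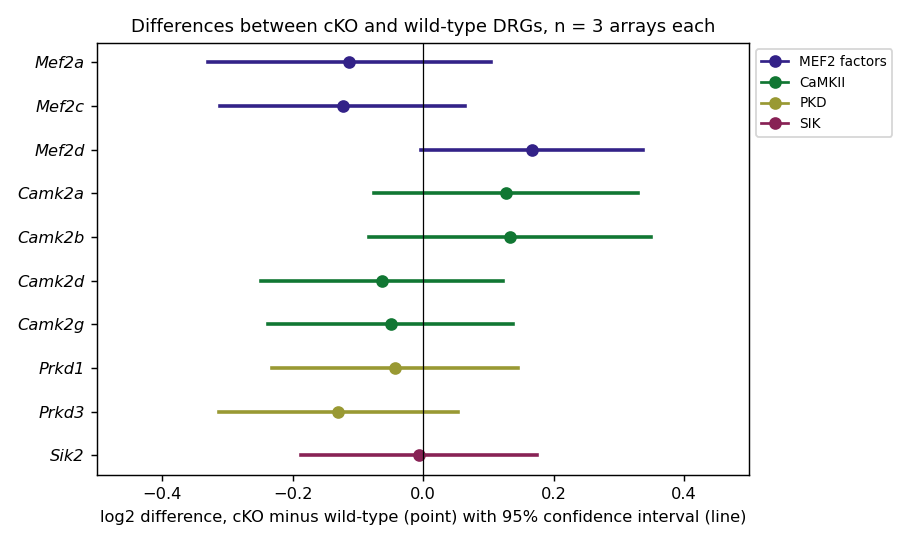
Log2 difference between cKO and wild-type DRGs for each member gene (point) with its 95% confidence interval from limma (line), n = 3 arrays per group, colored by family. All 10 intervals reach 0, that of Mef2d from -0.0040 to 0.34, and none extends beyond 0.35 in either direction.

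Across the 10 members 3 means were higher and 7 lower in the cKO group, with a median log2 difference of -0.05, beside 11239 higher, 10678 lower and a median of 0.00 over all 22180 genes. The groups did not overlap in 3 of 10 members, 1 higher and 2 lower. The background share was 13.7% of all genes (6.3% higher and 7.4% lower). The spread within groups was small: the median SD was 0.075 for the members and 0.107 for all genes. These 2 medians were not matched on signal, and the members all lie above the median probe set. The intervals cover the group difference in whole-ganglion signal, in a fit with group as the only term. They do not bound a change within the cells that Cre reaches. Over the members the lowest bound was 0.80 times wild-type, for Mef2a, and the highest 1.27 times, for Camk2b. Each interval is for 1 gene and is not adjusted for the number of genes.

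The balance between members of a family was compared within each array, since a difference between 2 genes of the same array is not moved by a shift of that whole array. In the MEF2 family the difference Mef2c minus Mef2d, taken relative to its wild-type mean, was 0.09, -0.02 and -0.06 in the wild-type arrays and -0.18, -0.22 and -0.46 in the cKO arrays. Mef2a minus Mef2d was 0.00, 0.06 and -0.06 against -0.08, -0.31 and -0.45. Both sets of groups were apart. For Mef2c minus Mef2d this follows from the single genes, since Mef2c was lower and Mef2d higher in every cKO array. For Mef2a minus Mef2d the exact permutation p was 0.1, and Mef2a minus Mef2c was not apart (mean shift 0.01, p = 0.8, exact). Of all other genes, however, 38.3% had a difference from Mef2d that did not overlap between the groups, and this separation is therefore common.

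Among the 6 pairs of CaMKII subunits 1 was apart. Camk2a minus Camk2d was -0.09, 0.02 and 0.06 in the wild-type arrays and 0.14, 0.14 and 0.28 in the cKO arrays, a mean shift of 0.19 (exact permutation p = 0.1). Every cKO array thus had more Camk2a relative to Camk2d than every wild-type array, as measured by these probes. Of all other genes, 10.7% had a difference from Camk2d that did not overlap between the groups. The same share was not calculated for Camk2a, which had the larger difference between the groups. The remaining CaMKII pairs had mean shifts of -0.01 to 0.20 and overlapped, as did Prkd1 minus Prkd3 (0.09). In all, 10 pairs were compared, and no exact p in this design can pass an adjustment over them.

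**Figure D3:**
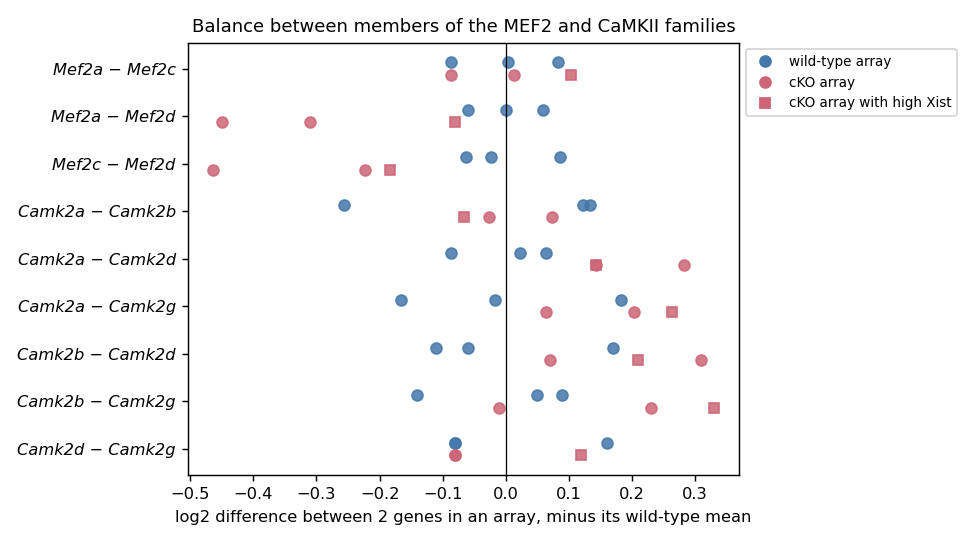
Difference in log2 signal between 2 genes of the same family in each array, minus the mean of that difference in the wild-type arrays, for wild-type arrays (blue) and cKO arrays (red; square, the cKO array with high Xist). The cKO arrays lie apart from the wild-type arrays for Mef2a − Mef2d, Mef2c − Mef2d and Camk2a − Camk2d, with mean shifts of -0.28, -0.29 and 0.19.

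The genes around these members gave 0 calls as well. Of 69 listed pathway genes 63 were measured, and 0 passed limma's adjustment in either direction. At an unadjusted p under 0.05 there were 2 of 63, beside 5.48% of all genes, and the groups did not overlap in 7 higher and 5 lower genes, beside 13.7% of all genes. The remaining PKD and SIK genes had small differences: Prkd2 was at 0.06 ± 0.07, Sik1 at -0.09 ± 0.12 and Sik3 at -0.02 ± 0.09 (log2 difference ± SE, n = 3 each). Mef2b was not analysed here.

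Of the 6 measured CaMKI, CaMKIV and activating kinase genes, Pnck, a CaMKI form of neurons, read 7.82, 7.58 and 7.73 in the wild-type arrays and 7.92, 7.91 and 7.84 in the cKO arrays. Its groups were apart, with a log2 difference of 0.18 ± 0.08 (SE, n = 3 each; adjusted p = 0.688 from limma). The nuclear kinase gene Camk4 was at -0.15 ± 0.09. Of the CaMKII inhibitor genes, Camk2n2 was at 0.16 ± 0.15 and Camk2n1 at 0.05 ± 0.08. Among 8 other kinases reported to act on class IIa HDACs, 7 had a higher mean in the cKO group. The microtubule affinity-regulating kinase gene Mark4 was at 0.21 ± 0.09, with the groups apart, and Dyrk1b at 0.10 ± 0.09.

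Among the 8 genes of 14-3-3 proteins and nuclear export, Xpo1, which encodes the export receptor CRM1, read 9.42, 9.41 and 9.41 in the wild-type arrays and 9.30, 9.30 and 9.23 in the cKO arrays. The arrays within each group lay close together and the groups were apart, with a log2 difference of -0.14 ± 0.06 (SE, n = 3 each; adjusted p = 0.688 from limma). The 14-3-3 eta gene Ywhah was at -0.12 ± 0.08, and over the group the median was 0.02. Protein kinase C genes that act upstream of PKD were at -0.12 ± 0.07 (Prkch) and 0.09 ± 0.08 (Prkce). Of 7 phosphatase genes 5 had a lower mean in the cKO group, among them the calcineurin subunit gene Ppp3ca at -0.14 ± 0.09 and Ppp1r12a at -0.10 ± 0.07. The MEF2 corepressor gene Cabin1 was at 0.16 ± 0.08, with the groups apart, and the CRTC gene Crtc1 at 0.15 ± 0.09.

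Of 10 genes listed as targets of MEF2 in other cells, 7 had a higher and 3 a lower mean in the cKO group (median log2 difference 0.11). The neurotrophin gene Bdnf read 7.53, 7.36 and 7.40 in the wild-type arrays and 7.60, 7.75 and 7.64 in the cKO arrays, a log2 difference of 0.23 ± 0.08 (SE, n = 3 each; adjusted p = 0.647 from limma). The AP-1 gene Jun read 11.03, 11.05 and 11.03 against 10.79, 10.79 and 10.95, a log2 difference of -0.19 ± 0.08 (SE, n = 3 each; adjusted p = 0.652 from limma). Both had groups apart, in opposite directions, and these are the 2 pathway genes at an unadjusted p under 0.05. The activity-regulated gene Arc (0.13 ± 0.07) and the potassium channel gene Kcna1 (0.12 ± 0.07) were apart too.

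Of the other class IIa HDAC genes, Hdac5 was at 0.15 ± 0.11 and Hdac9 at 0.12 ± 0.09 (log2 difference ± SE, n = 3 each). Their adjusted p values from limma were 0.757 and 0.766. By RT-qPCR the study found Hdac9 significantly higher in the cKOs and Hdac5 unaffected.

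**Figure D4:**
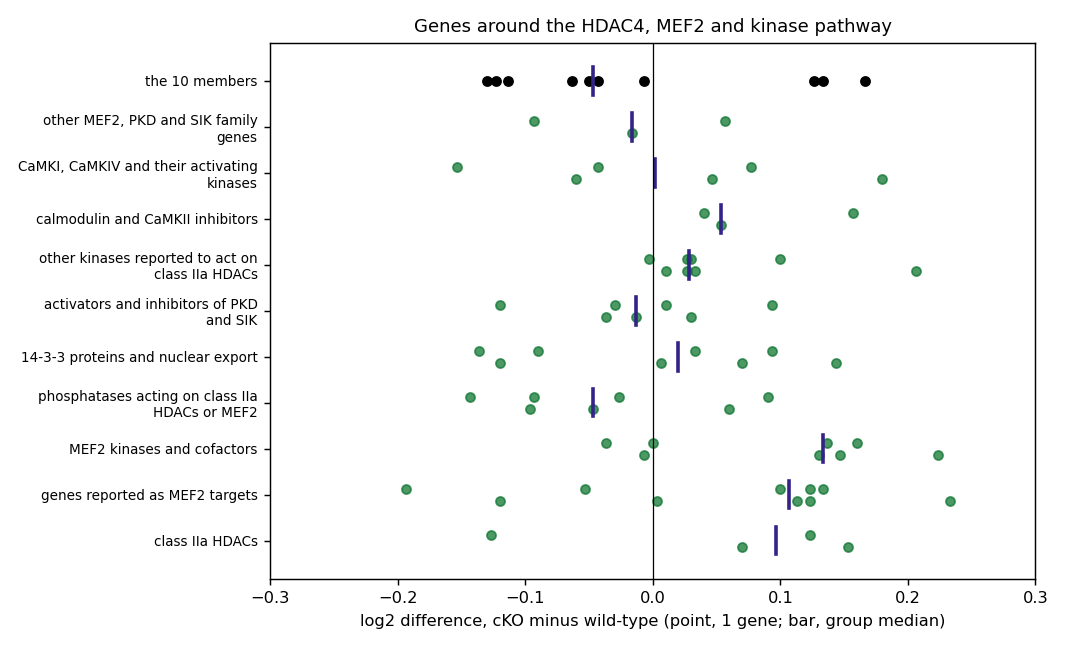
Log2 difference between cKO and wild-type DRGs (n = 3 arrays each) for the 10 members (black) and for pathway genes by group (green), 1 point per gene, with the group median as a bar. All points lie between -0.19 and 0.23, and the medians between -0.05 and 0.13.

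The directions of the members were also compared over 17 other settings. Of these, 5 leave every difference as it is by construction and bear only on the p values or the threshold, and the mean over probe sets can change Mef2c alone. In 7 of the 10 members the sign was kept in all of the remaining settings. Mef2d ranged from 0.10 to 0.20, Prkd3 from -0.17 to -0.09 and Mef2c from -0.16 to -0.07, and in none of these settings did a member pass the adjustment (smallest adjusted p = 0.426 from limma, for Mef2d without cKO replicate 1). Mef2d had an unadjusted p under 0.05 in 7 of the 17 settings, and the other members in 0. Some of these 7 leave its difference as it is. The fits with sex, the muscle marker mean or the replicate block were not among the 7. With the muscle marker mean and with the replicate block the unadjusted p of Mef2d from limma was 0.22 and 0.096.

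**Figure D5:**
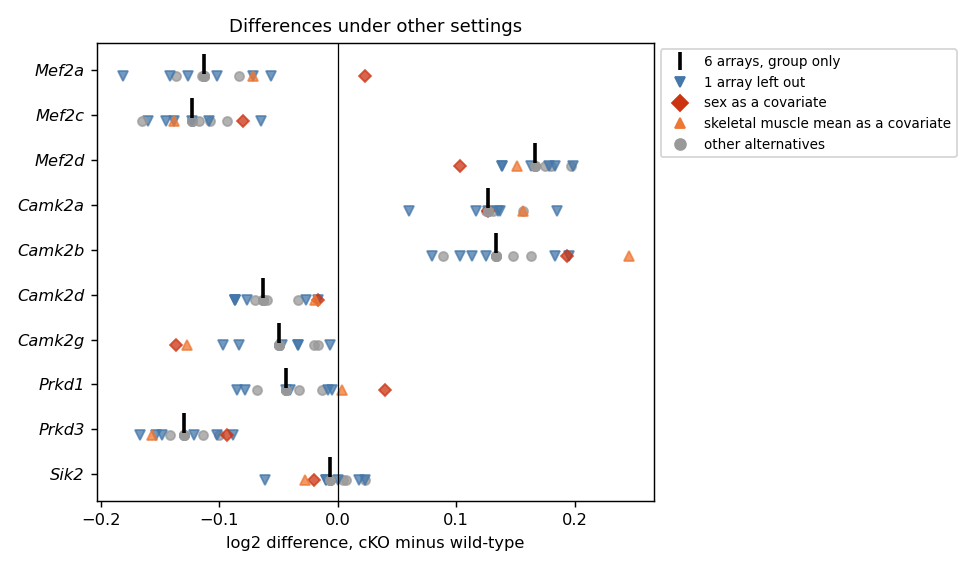
Log2 difference between cKO and wild-type DRGs for each member gene with all 6 arrays and group as the only term (black bar), and under 17 other settings: 1 array left out (blue), sex as a covariate (red), the skeletal muscle marker mean as a covariate (orange) and the rest (gray). Mef2a, Prkd1 and Sik2 are the genes with points on both sides of 0, and Mef2d ranges from 0.10 to 0.20.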

How the data were processed

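Lumbar DRG RNA from 3 wild-type and 3 cKO samples was hybridized to Affymetrix Mouse Gene 2.0 ST arrays. The authors made the deposited log2 values in oligo by RMA (background correction, quantile normalization between arrays, summary per probe set), which are given to 2 decimals. Versions are not given in the sources used here. Neither detection calls nor raw intensities were analysed, which leaves each signal without a measured background. Precision is limited by the number of arrays.

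All 41345 probe sets were fitted with limma 3.58.1 (R 4.3.3; lmFit, eBayes, group as the only term, prior degrees of freedom 2.51), as the methods name limma and no filter. P values were 2-sided and adjusted by the Benjamini-Hochberg method across the whole table. Of these, 23521 carry exactly 1 gene symbol, and the brightest per symbol gave 22180 genes. The fit was checked on simulated tables. Exact permutation tests used all arrangements of 3 arrays against 3 (smallest p 0.1).

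The members and lists were chosen with earlier results of these data known. Named by rule were all members, the remaining PKD and SIK genes and the class IIa HDACs Hdac4, Hdac5 and Hdac9. The 2 genes with the smallest p in each pathway group were named too. Arc, Kcna1 and Xist with Uty were named after their values were seen, for their groups or as a check of the arrays. The other named genes of the marker lists were also named with their values seen. Marker lists also covered large-diameter neurons, satellite glia, Schwann cells, macrophages, smooth muscle and fibroblasts, with median log2 differences of -0.01, 0.02, 0.01, 0.02, 0.07 and -0.09. Pan-neuronal and nociceptor medians were 0.02 and 0.01. The log2 summed fibroblast signal was apart, at 14.01 to 14.05 in the wild-type and 13.86 to 13.94 in the cKO arrays. With every marker given the same weight, the fibroblast list was again lower in all cKO arrays. The pan-neuronal, large-diameter neuron and smooth muscle lists were then higher in all cKO arrays. In the large-diameter list, however, 3 genes had a higher and 4 a lower mean. Its largest difference was that of Pvalb (0.28), which is also in the skeletal muscle list. In the smooth muscle list 7 genes were higher and 2 lower, and the largest difference was that of Des (0.81). A change in these 2 cell types therefore cannot be read from the list means. Promoters came from RefSeq (GRCm38.p6).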

Additional observations from a re-analysis of the deposited data

How the results depend on the processing

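The alternatives were cyclic loess, a shift of each array to the same median, probe sets above the median signal, a moderated variance with a trend (robust), only probe sets that carry a single symbol, weights per array, a replicate block, each array left out, sex or the skeletal muscle marker mean as a covariate, the mean of all probe sets of a gene, and an adjusted p under 0.1. Of 170 differences of members, 161 kept their sign, 8 changed it, 1 was 0 and none passed limma's adjustment, and 5 of the 17 settings cannot move a difference. Sik2 changed sign with cyclic loess (0.0069), the median shift (0.023), array weights (0.0042) and without wild-type replicate 2 (0.023) or 3 (0.018), and was 0 without cKO replicate 1 (-0.062 to 0.023 over the arrays left out). Mef2a (0.023) and Prkd1 (0.04) did so with sex as a covariate, and Prkd1 (0.0040) with the muscle mean. The cause was not tested. The members and the pathway genes gave 0 calls in every setting. Over all probe sets there were 0 to 9 calls with 1 array left out, the 9 without cKO replicate 1, where both remaining cKO arrays have low Xist, so that sex and genotype cannot be told apart, and 0 in the other settings. With the replicate block 0 probe sets and 0 members passed, and it changed no call. Deviations of arrays with the same number correlated at -0.04, -0.08 and -0.08. These values gave no sign that the numbers pair the samples, but they cannot exclude a pairing with little effect over all probe sets. The size of difference that 3 arrays per group could detect was not calculated.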
